A study of Drosophila melanogaster with 42 samples.

Results

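The genes of the muscle sarcomere, the repeating contractile unit of striated muscle, were followed in whole adult female Drosophila melanogaster on 42 Affymetrix Drosophila 2.0 arrays. The members were every probeset that the annotation of the array ties to a single gene from a list of contractile, regulatory, Z-disc, attachment and muscle energy genes. Of 40 genes on the list, 32 were found, with 54 probesets, out of 11982 genes and 18769 probesets in all. The other 8 genes, Act57B, TpnC25D, TpnC47D, Mhc, wupA, Tm1, Unc-89 and Lasp, were not analysed here. Where a gene had several probesets, the one of highest average level was used for it unless said otherwise. Of the 32 genes, 31 were above the lowest value of the data set on every array, and Zasp67, which encodes a PDZ domain protein, lay at that value or within 0.01 of it on all arrays.

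The study compared life span extending interventions at ages 10 and 40 days, in 14 groups of 3 arrays, each array with RNA from at least 75 whole females. All flies in the yw/w1118 background carried the ELAV-GeneSwitch driver, which acts in neurons when RU486 is fed. The dSir2 control flies carried this driver with the P{EP}dSir2 EP2300 insertion and received high calorie food with the ethanol diluent. Flies of the same genotype received low calorie food with diluent (dietary restriction, DR, in yw/w1118) or high calorie food with RU486 (labelled dSir2 overexpression). The DN-Dmp53 flies and their control carried the driver with P{GUS}-Dmp53, a dominant-negative form of the fly p53, with RU486 or with diluent on a diet labelled normal (in the sample titles they are called p53 knockdown and p53 control). For both transgenic lines the methods refer to the regular cornmeal food of the life span experiments, whereas the study's results give high calorie food for the dSir2 line. Canton-S, a wild-type strain, was kept on high calorie food (control) or low calorie food (DR). RU486 in flies without a construct was not analysed here, so in both transgenic comparisons RU486 and the transgene cannot be told apart. DR in yw/w1118 and dSir2 were compared with the same control arrays, so their results are not independent.

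Values are GCRMA-processed log2 intensities, on which a difference of 1 is a doubling, and levels were not compared between genes. The arrays were alike in overall signal, with medians between 2.77 and 3.16 and 36.9% to 41.0% of probesets at the lowest value. The probeset of Sirt1, the fly Sir2 gene, was not higher on the arrays labelled dSir2 (log2 difference −0.22 ± 0.11 SE at day 10, adjusted p = 0.232, and 0.04 ± 0.08 at day 40, adjusted p = 0.943, limma). On the dSir2 arrays at day 10 it read 11.80, 11.63 and 11.65, against 11.99, 11.71 and 12.04 in the control. The p53 probeset that was above the lowest value differed by 0.23 ± 0.07 with DN-Dmp53 at day 10 and by 0.22 ± 0.07 at day 40 (adjusted p = 0.223 and 0.304). The Sirt1 values, from whole flies with a neuronal driver, thus gave no check of the dSir2 label, and the word dSir2 below names the label only.

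In the sarcomere, thick filaments of myosin slide along thin filaments of actin, and calcium opens the thin filament to myosin through troponin and tropomyosin. Thin filaments are anchored in Z-discs, and titin-like proteins join thick filaments to the Z-disc. Drosophila builds its muscles from several versions of these proteins: the asynchronous indirect flight muscle has its own actin and troponin C, the jump and leg muscles have others, and further ones belong to larval and adult body wall muscle.

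Most sarcomere genes were higher in the DR flies of both backgrounds at day 10. Of the 31 members tested, 24 rose and 0 fell in yw/w1118, and 22 rose and 0 fell in Canton-S, where a gene was called with a Benjamini-Hochberg adjusted p under 0.05 in limma and a change over 1.5-fold. Of all genes tested, 17.7% were called higher and 14.3% lower in yw/w1118, and 17.2% and 17% in Canton-S. The median change of the members was 1.41 in yw/w1118 and 1.52 in Canton-S, against −0.01 and 0.00 over all genes. The comparisons in the 2 backgrounds share no arrays, and 21 of the 32 members (65.6%) were called higher in both. Of all 11982 genes, tested or not, 1274 (10.6%) were called higher in both. The genes tested numbered 9334 in yw/w1118 and 9609 in Canton-S. In whole-fly RNA, a larger share of muscle in the body and more RNA per muscle cell cannot be told apart.

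**Figure D1:**
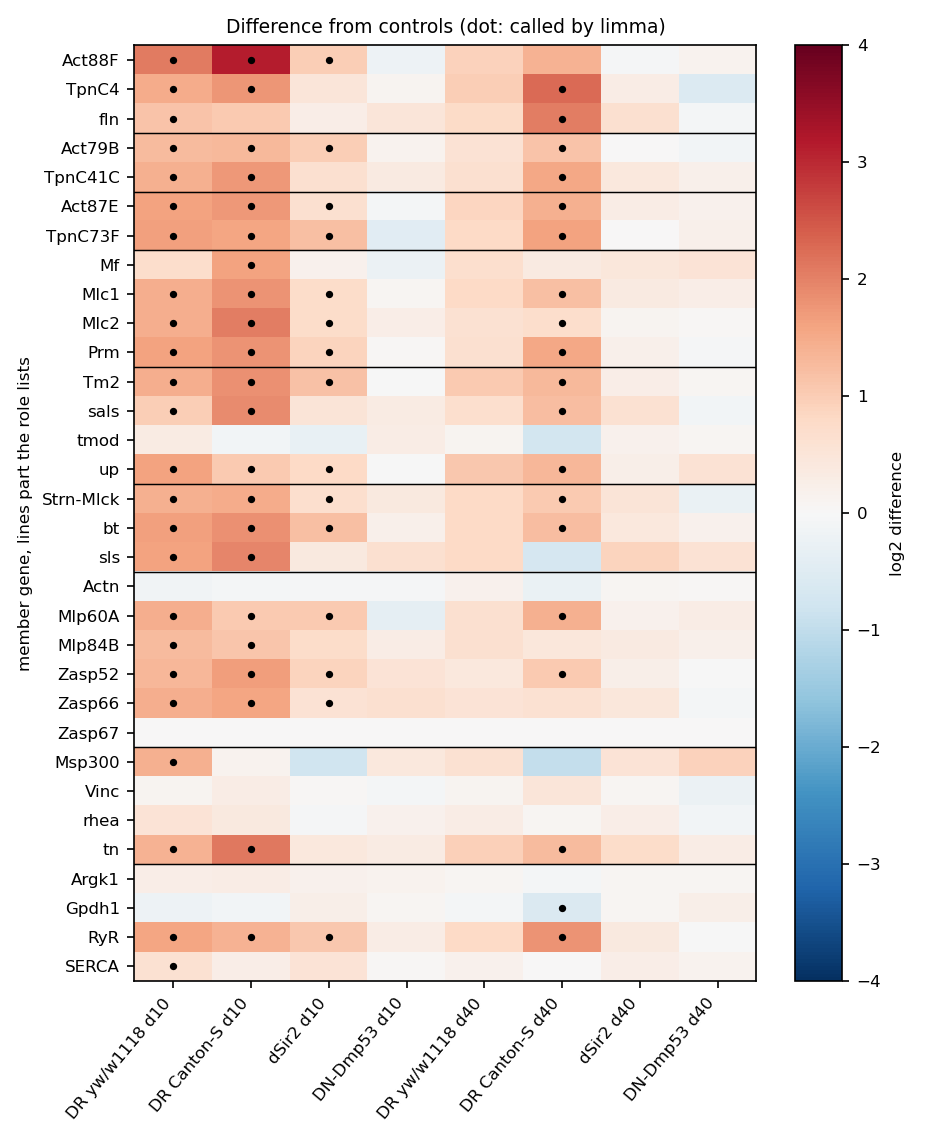
Log2 difference of 32 member genes (rows, parted by role) from their controls in the 8 intervention comparisons (columns, d10 and d40 for the age in days); a black dot marks a gene called by limma. The DR columns at day 10 carry 24 and 22 dots, the dSir2 column at day 10 carries 15, and both DN-Dmp53 columns carry 0.

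Among the flight muscle genes, Act88F, the actin of the indirect flight muscle, differed most. At day 10 it measured 8.84, 8.70 and 8.36 in yw/w1118 DR against 6.71, 6.31 and 6.67 in the control. In Canton-S it measured 9.59, 8.50 and 10.08 under DR and 7.0, 5.80 and 5.95 in the control. All DR arrays lay above all control arrays, with a difference of 2.07 ± 0.18 (SE, n = 3 and 3, limma adjusted p = 0.00145) in yw/w1118 and 3.14 ± 0.56 (adjusted p = 0.00889) in Canton-S. TpnC4, a troponin C of flight muscle, read 11.52, 11.70 and 11.47 in yw/w1118 DR and 10.25, 9.88 and 10.14 in the control. It rose by 1.47 ± 0.12 (adjusted p = 0.00135) and, in Canton-S, by 1.76 ± 0.35 (adjusted p = 0.0126), from 9.39, 8.29 and 8.88 to 10.98, 10.58 and 10.28. The third gene, fln, encodes flightin, a thick filament protein needed for flight muscle structure, and rose by 1.15 ± 0.08 in yw/w1118 (adjusted p = 0.00096), from 8.90, 8.73 and 8.88 to 10.11, 9.94 and 9.91. Its Canton-S arrays overlapped, at 9.03, 8.25 and 8.01 under DR and 8.05, 6.27 and 7.84 in the control, and the difference of 1.04 ± 0.60 was not called (adjusted p = 0.224).

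The body wall genes moved by similar amounts with less scatter. Act87E, an actin of body wall muscle, read 12.47, 12.60 and 12.37 in yw/w1118 DR against 10.80, 10.88 and 10.89 in the control, and 12.31, 12.30 and 12.14 in Canton-S DR against 10.70, 10.48 and 10.37. Both differences, 1.62 ± 0.07 (adjusted p = 0.000594) and 1.74 ± 0.11 (adjusted p = 0.00065), were several times the spread between arrays. TpnC73F, a troponin C of body wall and visceral muscle, read 9.67, 9.61 and 9.44 in yw/w1118 DR and 7.81, 7.90 and 8.11 in the control. In Canton-S it read 9.33, 9.47 and 9.16 under DR and 7.85, 7.83 and 7.56 in the control. Its rise was close in size in both backgrounds, at 1.63 ± 0.10 (adjusted p = 0.000912) and 1.57 ± 0.12 (adjusted p = 0.000959). The probeset of Act87E has a suffix used for probes that match several transcripts, and the actin genes are closely similar in their coding sequence, so a share of signal from other actins was not tested.

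Both jump and leg muscle genes rose as well. Act79B, the actin of the jump muscle and leg muscles, read 10.79, 10.99 and 10.78 in yw/w1118 DR against 9.80, 9.50 and 9.47 in the control, and 10.62, 10.57 and 10.80 in Canton-S DR against 9.55, 9.20 and 9.36. Its differences were 1.26 ± 0.12 and 1.29 ± 0.11 (adjusted p = 0.00165 and 0.0013). TpnC41C, the troponin C of the jump muscle, read 10.74, 10.85 and 10.55 in yw/w1118 DR against 9.43, 9.10 and 9.36. In Canton-S it read 10.35, 10.14 and 10.20 under DR against 8.63, 8.34 and 8.49. It was higher by 1.42 ± 0.13 and 1.74 ± 0.10 (adjusted p = 0.00155 and 0.000586), with no overlap between the groups.

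Of the 4 thick filament genes, 3 rose in yw/w1118 and 4 in Canton-S. Prm encodes paramyosin, the core protein of invertebrate thick filaments, and read 11.88, 12 and 11.90 in yw/w1118 DR against 10.28, 10.33 and 10.38 in the control, a difference of 1.60 ± 0.04 (adjusted p = 0.000438). In Canton-S it read 11.60, 11.47 and 11.41 against 9.87, 9.75 and 9.49, a difference of 1.79 ± 0.12 (adjusted p = 0.000732). The light chains of myosin followed. Mlc1, the essential light chain of muscle myosin, read 12.92, 12.87 and 12.82 in yw/w1118 DR against 11.42, 11.36 and 11.45, and 12.76, 12.61 and 12.69 in Canton-S DR against 11.06, 10.64 and 10.96. Mlc2, the regulatory light chain, read 11.05, 11.02 and 10.77 in yw/w1118 DR against 9.60, 9.37 and 9.49, and 10.92, 10.79 and 10.86 in Canton-S DR against 9.06, 8.72 and 8.64. Each light chain rose by 1.46 in yw/w1118, and by 1.80 ± 0.13 (Mlc1, adjusted p = 0.000832) and 2.05 ± 0.13 (Mlc2, adjusted p = 0.000655) in Canton-S. The fourth gene, Mf, encodes myofilin, also of the thick filament, and differed by 0.69 ± 0.22 in yw/w1118 (adjusted p = 0.0536) and by 1.60 ± 0.18 in Canton-S (adjusted p = 0.0025).

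In the thin filament, Tm2, a tropomyosin, up, the troponin T gene, and sals, whose product acts on actin filament length, rose in both backgrounds, and tmod, the capping protein of the pointed filament end, was not called. Tm2 read 11.25, 11.10 and 11.07 in yw/w1118 DR against 9.94, 9.48 and 9.65, and 11.14, 10.92 and 10.85 in Canton-S DR against 9.32, 9.12 and 8.98. For up the values were 10.36, 9.92 and 10.02 against 8.54, 8.60 and 8.34 in yw/w1118, and 9.74, 9.30 and 9.79 against 8.64, 8.42 and 8.65 in Canton-S. The changes were 1.45 ± 0.13 and 1.83 ± 0.12 for Tm2, and 1.61 ± 0.14 and 1.04 ± 0.16 for up. For sals the levels under DR were 7.65, 7.62 and 7.36 in yw/w1118 and 7.68, 7.57 and 7.85 in Canton-S, and in the controls 6.31, 6.64 and 6.67, and 6.47, 5.45 and 5.54. Its changes of 1.0 ± 0.14 and 1.88 ± 0.31 had adjusted p = 0.00415 and 0.00717. The difference of tmod was small in both, at 0.33 ± 0.02 and −0.10 ± 0.02, under the fold limit, although DR and control arrays did not overlap.

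All 3 giant or titin-like genes measured rose at day 10. bt encodes projectin, the elastic kinase that links the thick filament to the Z-disc, and read 11.92, 11.83 and 11.93 in yw/w1118 DR against 10.34, 10.16 and 10.22, and 11.48, 11.48 and 11.60 in Canton-S DR against 9.94, 9.74 and 9.40. Its differences, 1.65 ± 0.06 and 1.83 ± 0.15 (adjusted p = 0.000523 and 0.00113), left a wide gap between DR and control. Strn-Mlck, a myosin light chain kinase of the same family, read 9.08, 9.06 and 8.86 in yw/w1118 DR against 7.74, 7.71 and 7.31, and 8.75, 8.53 and 8.80 in Canton-S DR against 7.43, 7.11 and 7.12, differences of 1.41 ± 0.14 and 1.47 ± 0.12. sls, the Sallimus or kettin gene of the elastic connecting filament, read 8.68, 8.62 and 8.46 in yw/w1118 DR against 7.36, 6.85 and 6.69, and 8.17, 8.19 and 9.04 in Canton-S DR against 7.07, 6.75 and 5.75. It rose by 1.62 ± 0.20 (adjusted p = 0.00304) and 1.95 ± 0.46 (adjusted p = 0.0215), and its Canton-S arrays were among the most scattered of the members.

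The Z-disc genes divided. Mlp60A and Mlp84B, small muscle LIM proteins, and Zasp52 and Zasp66, PDZ domain proteins of the Z-disc, rose in both backgrounds, and Actn, alpha-actinin itself, the crosslinker of thin filaments, was not called in either, at −0.16 ± 0.08 and −0.09 ± 0.07. Mlp60A read 13.40, 13.45 and 13.33 in yw/w1118 DR against 11.96, 11.96 and 11.89, and 12.84, 12.70 and 12.77 in Canton-S DR against 11.81, 11.61 and 11.80. Zasp52 read 11.94, 11.84 and 11.75 against 10.48, 10.53 and 10.55 in yw/w1118, and 11.59, 11.67 and 11.53 against 10.06, 9.90 and 9.79 in Canton-S. The corresponding changes were 1.46 ± 0.04 and 1.03 ± 0.07 for Mlp60A, and 1.32 ± 0.05 and 1.68 ± 0.08 for Zasp52. Zasp66 read 12.97, 13.14 and 12.83 against 11.57, 11.48 and 11.56 in yw/w1118, and 13.18, 13.17 and 13.07 against 11.81, 11.42 and 11.46 in Canton-S, with changes of 1.44 ± 0.09 and 1.58 ± 0.12. Actn read 10.48, 10.52 and 10.50 in yw/w1118 DR and 10.83, 10.55 and 10.59 in the control.

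Of the attachment and turnover genes, tn was called in both backgrounds. Its product, Thin or Abba, is a TRIM protein needed to keep sarcomeres intact. It read 9.22, 9.37 and 9.16 in yw/w1118 DR against 7.78, 7.96 and 7.87, and 9.80, 9.98 and 10.09 in Canton-S DR against 8.07, 7.77 and 7.67. The rise was 1.38 ± 0.08 in yw/w1118 and 2.12 ± 0.14 in Canton-S, and the Canton-S rise was the larger by 0.75 ± 0.16 (interaction, limma adjusted p = 0.038). Msp300, a nesprin that ties nuclei to the Z-disc, behaved otherwise: 9.08, 8.89 and 8.85 under DR against 7.57, 7.55 and 7.43 in yw/w1118, but 8.63, 8.45 and 8.49 against 8.54, 8.38 and 8.22 in Canton-S. Its change was 1.42 ± 0.08 in yw/w1118 and 0.14 ± 0.10 in Canton-S, and it differed between them by −1.28 ± 0.13 (interaction, adjusted p = 0.00175). These were the members called for the interaction of background and DR at day 10, 1 positive and 1 negative, where 1.61% and 1.68% of all genes were called. The integrin-linked members Vinc (vinculin) and rhea (talin) were not called, and rhea read 12.01, 11.99 and 11.83 against 11.20, 11.54 and 11.46 in yw/w1118, and 12.07, 12.04 and 11.94 against 11.77, 11.72 and 11.40 in Canton-S, differences of 0.55 ± 0.11 and 0.39 ± 0.12.

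Of the calcium and energy genes, RyR was called in both backgrounds. It encodes the ryanodine receptor, which releases calcium from the sarcoplasmic reticulum. RyR read 7.29, 7.14 and 7.41 in yw/w1118 DR against 5.81, 5.56 and 5.75, and 6.75, 6.21 and 6.76 in Canton-S DR against 5.57, 5.49 and 4.50. It rose by 1.57 ± 0.10 and 1.38 ± 0.36 (adjusted p = 0.000928 and 0.0304). SERCA, the pump that returns calcium to the reticulum, read 13.12, 13.12 and 13.05 in yw/w1118 DR against 12.57, 12.48 and 12.44, and 12.93, 12.84 and 12.99 in Canton-S DR against 12.67, 12.66 and 12.60. Its probeset was called in yw/w1118 (0.60 ± 0.04, adjusted p = 0.00112) and lay under the fold limit in Canton-S (0.28 ± 0.04), whereas its other probesets rose in both, by 1.17 and 1.58 in yw/w1118 and by 1.25 and 1.70 in Canton-S. The metabolic members, Argk1 (arginine kinase, which buffers ATP) and Gpdh1 (glycerol-3-phosphate dehydrogenase, which serves the redox shuttle of flight muscle), differed by 0.27 and −0.21 in yw/w1118 and by 0.30 and −0.09 in Canton-S. Gpdh1 read 13.63, 13.60 and 13.67 in yw/w1118 DR and 14.04, 13.74 and 13.76 in the control, and 13.57, 13.59 and 13.18 in Canton-S DR and 13.57, 13.57 and 13.48 in the control. Its other 3 probesets differed by −0.31, 0.51 and 0.60 in yw/w1118 (none called) and by −0.42, 0.76 and 0.81 in Canton-S (both positive differences called), so the probesets of Gpdh1 did not move together. Of the 9 genes of glycolysis measured beside them, 0 were called in either background, with medians of −0.15 and −0.19.

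Genes that shape muscle without belonging to the sarcomere gave a mixed picture. Of 14 regulators and adhesion genes measured, 7 rose and 0 fell in yw/w1118 and 5 rose and 0 fell in Canton-S at day 10. Among all genes tested, 17.7% were called higher in yw/w1118 and 17.2% in Canton-S. CAP, a binding partner of vinculin, rose by 1.47 and 1.51, Mp20, a muscle calponin, by 1.44 and 1.48, if, the alpha-PS2 integrin of muscle ends, by 1.37 and 1.31, and salm, the transcription factor that selects flight muscle fate, by 1.45 and 0.69. The adhesome genes Ilk, parvin and stck differed by between −0.18 and 0.26. The fusion receptors kirre and sns were near the lowest value.

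Genes of the lists of other cell types were also called. Of all genes tested at day 10, 17.7% were called higher and 14.3% lower in yw/w1118, and 17.2% and 17% in Canton-S. All 6 photoreceptor genes measured rose in both backgrounds at day 10, with medians of 1.16 and 1.66, and 6 of 9 and 5 of 10 neuronal genes rose (1 fell in Canton-S), with medians of 1.02 and 0.76. Of 8 midgut genes, 3 rose in each background and 0 fell, with medians of 0.66 and 1.04, and of 11 fat body genes 4 rose and 1 fell in each. The summed linear level of the photoreceptor list lay between 19538 and 20796 in yw/w1118 DR and between 8874 and 9236 in its control, and between 26026 and 30797 in Canton-S DR and 9662 and 11434 in its control. In the ovary list of 19 germline and eggshell genes, 0 rose, 3 fell in yw/w1118 and 6 fell in Canton-S, with medians of −0.09 and −0.22. The share that fell in yw/w1118 lay near that of all genes. The summed linear level of the ovary list spanned 225020 to 229547 in yw/w1118 DR and 243877 to 268537 in its control, and 231569 to 251229 in Canton-S DR and 281917 to 295773 in its control. Of the measured ovary and photoreceptor genes, 0 were at the lowest value on any array, whereas the neuronal genes brp and VGlut were there on 36 and 40 of the 42 arrays. The part of body composition in the rise of the sarcomere genes was not tested.

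At day 40 the members stood higher under DR in both backgrounds, and members were called in Canton-S but not, in the same fit, in yw/w1118. In Canton-S, 18 members rose and 1 fell, against 13% and 12.1% of all genes, and the median change was 1.10. TpnC4 read 10.38, 9.88 and 9.93 under DR against 8.0, 7.75 and 7.65, and rose by 2.26 ± 0.18 (adjusted p = 0.00344). At this age fln was called, at 9.02, 9.13 and 9.09 against 7.42, 7.02 and 6.70, a rise of 2.03 ± 0.20 (adjusted p = 0.00459). For Act88F the arrays did not overlap, at 9.59, 9.03 and 8.90 against 7.90, 7.03 and 8.43, but the difference of 1.39 ± 0.42 missed the threshold (adjusted p = 0.0636). Body wall genes rose as before, with Act87E at 12.30, 12.20 and 12.13 against 10.92, 10.66 and 10.74 (1.44 ± 0.09, adjusted p = 0.00277) and TpnC73F at 10.36, 9.94 and 10.24 against 8.66, 8.48 and 8.58 (1.61 ± 0.13, adjusted p = 0.00347). RyR rose by 1.79 ± 0.12 (adjusted p = 0.00322), from 5.48, 5.51 and 5.18 to 7.18, 7.05 and 7.31. Gpdh1 was the member that fell, from 13.48, 13.74 and 13.68 to 12.83, 13.28 and 13.02, a difference of −0.59 ± 0.14 (adjusted p = 0.0341). This call was lost with no filter, array weights, centred arrays, the methods' t-test, and without replicate 1 or 3 of the DR or replicate 2 or 3 of the control arrays, with differences between −0.48 and −0.59. On 1 Canton-S DR array of this age, replicate 1, several members were low: Msp300 read 4.56 against 7.38 and 7.13 on the other arrays of the group, sls 5.36 against 6.92 and 7.76, and tmod 9.44 against 10.21 and 10.53. Photoreceptor genes again rose, 6 of 6 with a median of 1.41, and in the ovary list 1 rose and 4 fell.

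In yw/w1118 at day 40, 0 members were called in limma, where 0.0518% of all genes were called higher and 0.0207% lower. Of the 31 tested, 21 had an unadjusted p under 0.05, all 21 higher under DR. The share of all genes under this unadjusted limit was not counted. All DR arrays lay above all control arrays for 21 members, against 13.1% of all genes, and 30 of 31 differences were positive, with a median of 0.64. The lowest adjusted p belonged to Act87E (0.0526), which read 12.09, 12.26 and 12.22 against 11.24, 11.47 and 11.32 (0.84 ± 0.08). TpnC4 read 9.53, 9.89 and 9.88 against 8.66, 8.70 and 8.99 (0.98 ± 0.15, adjusted p = 0.086), and Act88F read 10.19, 10.15 and 10.72 against 9.46, 9.32 and 9.53 (0.92 ± 0.18, adjusted p = 0.114). The count depended on the fit: 17 members were called when all 14 groups shared 1 estimate of the spread, 19 with array weights and 10 by the methods' t-test. With the DN-Dmp53 control as the reference, an alternative chosen after seeing the data, 7 were called. The shares of all genes called under these alternatives were not counted.

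The DR differences were smaller at day 40 than at day 10 for part of the members. In yw/w1118, 0 members were called with a larger and 10 with a smaller DR difference at day 40 (interaction of age and DR, against 2.04% and 2.95% of all genes), among them Act88F (−1.15 ± 0.26, adjusted p = 0.0385), Prm (−0.95 ± 0.16) and Act87E (−0.78 ± 0.11). TpnC73F and Mlp60A, both among the 10, were higher in the DN-Dmp53 control than in the dSir2 control at day 10, by 1.25 and 0.92. The interaction in yw/w1118 used the dSir2 controls and was not fitted with the DN-Dmp53 controls. In Canton-S the counts of larger and smaller DR differences were 0 and 5 (against 3.12% and 4.76%), led by Mlc2 (−1.34 ± 0.23, adjusted p = 0.0117). The difference between the backgrounds at day 40 was called for 9 members, all with the larger DR difference in Canton-S, and for 0 in the other direction (against 1.62% and 2.34%). TpnC4 and fln had the largest of these, at 1.28 ± 0.24 (adjusted p = 0.0307) and 1.26 ± 0.25 (adjusted p = 0.0345). Most of the 9 calls were lost with no filter or with the replicate number as a block.

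**Figure D2:**
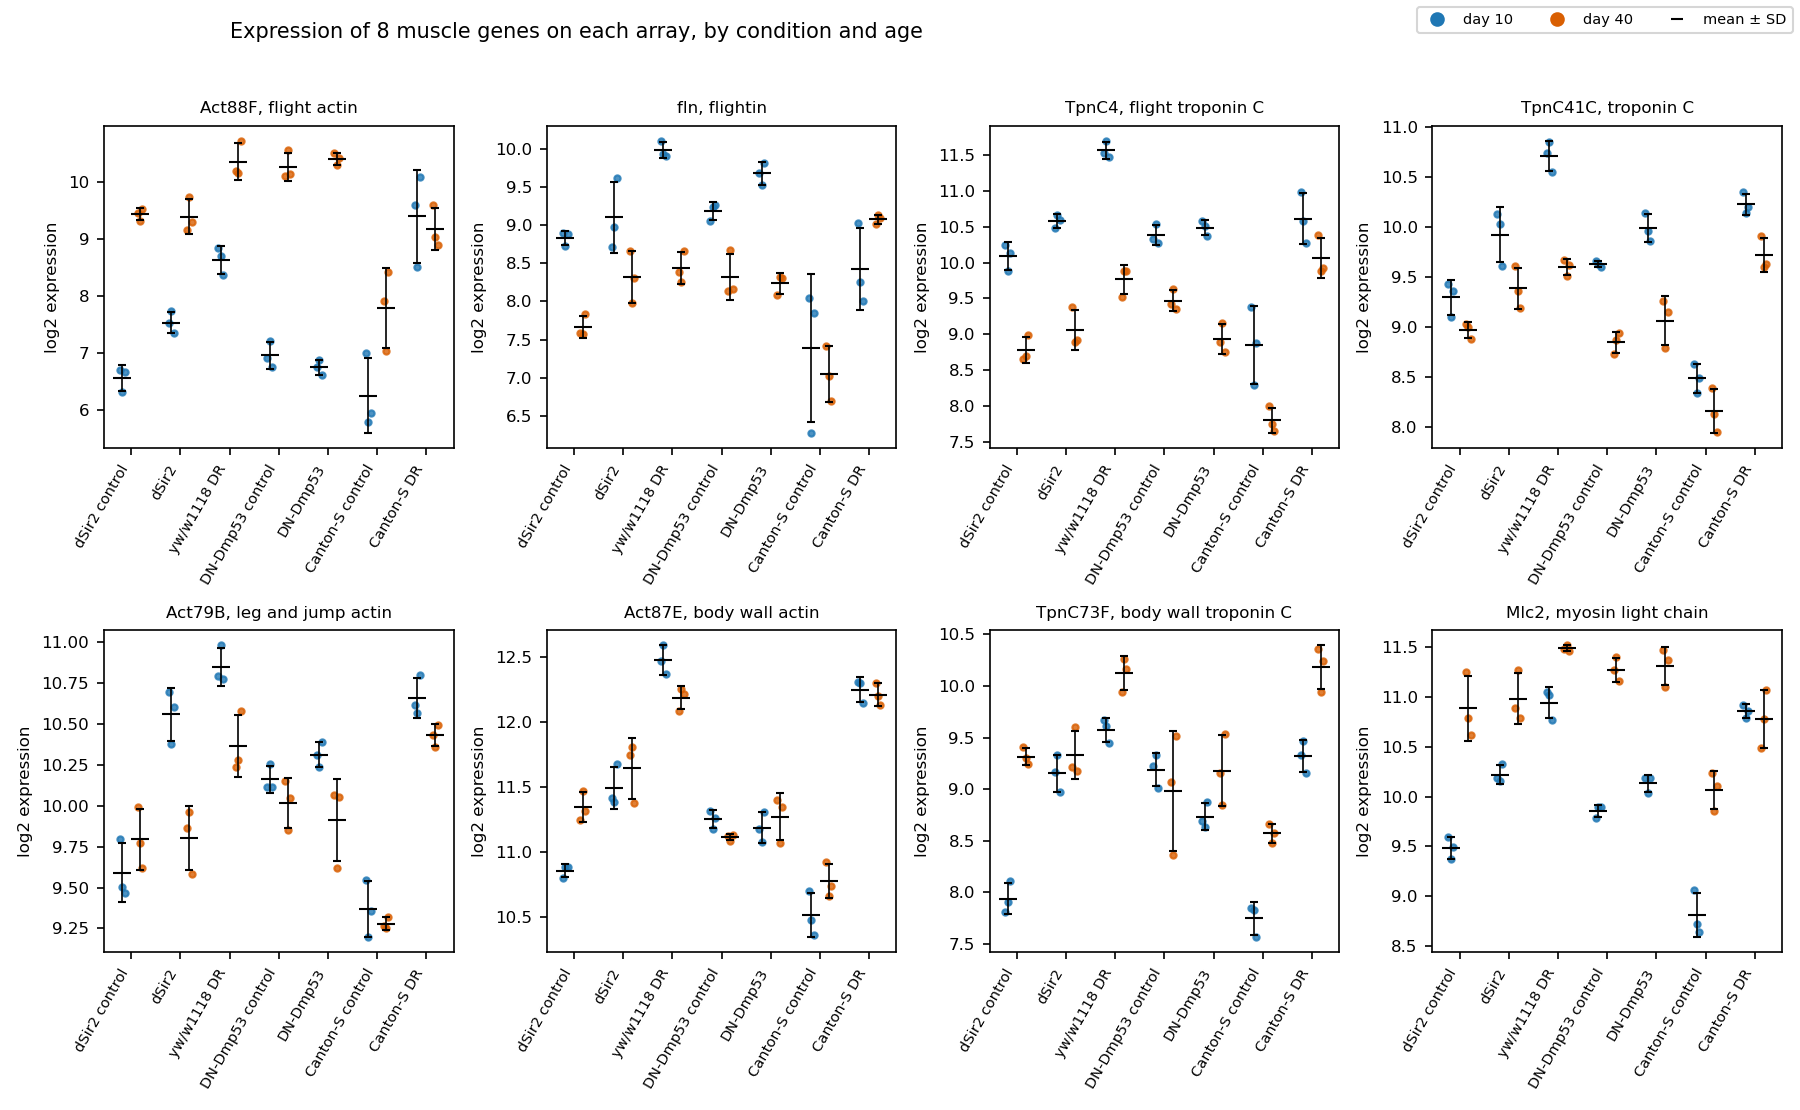
Log2 expression of 8 members on each array (points), with the mean ± SD of 3 arrays (black), by condition (x axis) and age (blue for day 10, orange for day 40); the y axes differ between panels. In the dSir2 control, Act88F lies at 6.31 to 6.71 at day 10 and 9.32 to 9.53 at day 40, whereas TpnC4 goes from 9.88 to 10.25 down to 8.66 to 8.99.

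On the arrays labelled dSir2 at day 10, 15 of 32 members were higher and 0 lower than the control, against 6.47% and 5.49% of all genes, with a median change of 0.61. TpnC73F had the largest difference, at 9.17, 9.33 and 8.97 against 7.81, 7.90 and 8.11 (1.22 ± 0.13, adjusted p = 0.007). Then came bt at 11.46, 11.34 and 11.52 against 10.34, 10.16 and 10.22 (1.20 ± 0.07, adjusted p = 0.00269), Tm2 at 10.90, 10.91 and 10.80 against 9.94, 9.48 and 9.65 (1.18 ± 0.13, adjusted p = 0.00785), and RyR at 6.93, 6.82 and 6.61 against 5.81, 5.56 and 5.75 (1.08 ± 0.11, adjusted p = 0.0071). In the flight muscle list only Act88F was called, at 7.52, 7.73 and 7.35 against 6.71, 6.31 and 6.67 (0.97 ± 0.16, adjusted p = 0.0177). TpnC4 differed by 0.49 ± 0.11, under the fold limit, and fln by 0.27 ± 0.25. Without replicate 2 of the dSir2 control, 9 members were called. Photoreceptor genes moved here too, 5 of 6 higher with a median of 0.72, and 3 of 13 muscle regulators rose, whereas in the neuronal list 0 of 9 were called.

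The count at day 10 depended on the control used. The dSir2 control and the DN-Dmp53 control at day 10, both with diluent and both labelled as normal diet and as yw, w1118 background, differed in these genes: 4 members were higher in the DN-Dmp53 control and 0 lower, against 4.5% and 2.01% of all genes, with a median of 0.36. TpnC73F read 9.23, 9.33 and 9.02 in the DN-Dmp53 control, higher by 1.25 ± 0.12 (adjusted p = 0.00826), and bt read 11.29, 11.31 and 10.98, higher by 0.95 ± 0.11 (adjusted p = 0.0121). The other 2 were Mlp60A (0.92 ± 0.09) and Tm2 (0.73 ± 0.13). Without replicate 2 of the dSir2 control 2 members were called. With the DN-Dmp53 control in place of the dSir2 control, 0 members were called on the dSir2 arrays at day 10. The median was 0.21 and TpnC73F differed by −0.035. This comparison was chosen after seeing the data, and the inserted construct also differs in it. For the DN-Dmp53 flies the methods refer to regular cornmeal food, without a calorie strength. The same change of reference left 22 members called higher for DR in yw/w1118, with a median of 0.87. The shares of all genes called with this reference were not counted. At day 40 the controls differed in 0 members either way, against 0.384% and 0.374% of all genes.

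At day 40, 0 members were called on the dSir2 arrays, and of all genes 0% were called in either direction. At an unadjusted p under 0.05 there were 9, all higher. The share of all genes under that limit was not counted. For 11 members all dSir2 arrays lay above all control arrays, against 7.06% of all genes. The median change was 0.27. The dSir2 difference was called smaller at day 40 than at day 10 for 5 members and larger for 0 (against 2.14% and 2.1%), with TpnC73F at −1.20 ± 0.19 (adjusted p = 0.0134). For TpnC73F the control read 9.41, 9.30 and 9.25 at day 40, against 7.81, 7.90 and 8.11 at day 10, and the dSir2 arrays read 9.22, 9.60 and 9.18 at day 40, overlapping the control. This interaction was not fitted with the DN-Dmp53 controls.

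With DN-Dmp53, 0 members were called at either age, against 1.17% higher and 1.11% lower of all genes at day 10 and 0.0104% and 0% at day 40. The share of all genes at an unadjusted p under 0.05 was not counted. At that limit there were 8 members at day 10, 6 higher and 2 lower, and 5 at day 40, 3 higher and 2 lower. The closest was Zasp52 at day 10, at 11.52, 11.53 and 11.55 against 11.03, 11.07 and 10.89, whose difference of 0.54 ± 0.05 (adjusted p = 0.0165) was under the fold limit. Act88F read 6.76, 6.87 and 6.62 with DN-Dmp53 and 6.92, 7.21 and 6.75 in the control at day 10, and the groups overlapped. For the interaction of age and DN-Dmp53, 1 member was called positive and 0 negative (against 1.13% and 0.753%), namely Mlp60A, at 0.66 ± 0.13 (adjusted p = 0.0485). Its difference with DN-Dmp53 was −0.37 ± 0.10 at day 10 and 0.29 ± 0.08 at day 40, neither of them called. The replicate numbers paired these arrays, and with the replicate number as a block Mlp60A was no longer called (adjusted p = 0.0893), whereas TpnC4 was, with a negative interaction of −0.64 ± 0.09 (adjusted p = 0.0249, against 0.116 without the block).

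Over all groups, the members were summarised on each array by the median of each gene's deviation from its own mean. These scores were not tested. The order ran from yw/w1118 DR at day 10 (0.67 ± 0.08, SD) and at day 40 (0.47 ± 0.18) over Canton-S DR at day 10 (0.42 ± 0.07) and day 40 (0.32 ± 0.05) to the dSir2 and DN-Dmp53 groups and their controls. It ended with the dSir2 control at day 10 (−0.56 ± 0.04) and the Canton-S control at day 40 (−0.60 ± 0.11) and day 10 (−0.86 ± 0.16). The ranges of neighbouring DR groups overlapped. The 12 DR arrays lay between 0.28 and 0.73, above every array of the other groups, of which the highest was at 0.24. The dSir2 control arrays lay between −0.60 and −0.52 at day 10 and between −0.17 and 0.02 at day 40.

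**Figure D3:**
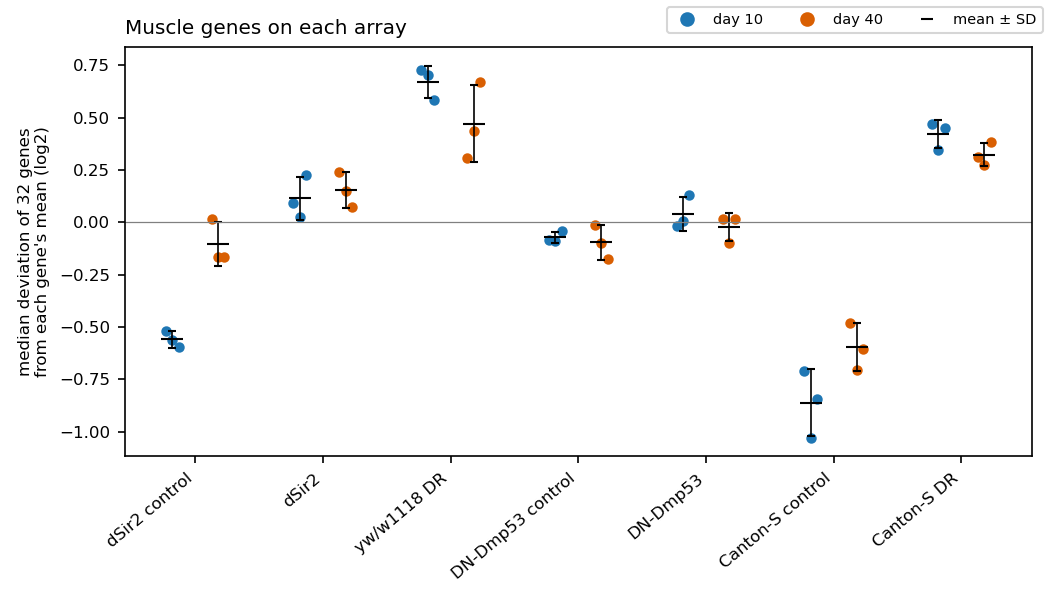
Median deviation of the 32 genes from each gene's mean over 42 arrays (y axis, log2) on each array (points), by condition and age (blue for day 10, orange for day 40), with mean ± SD of 3 arrays in black. The yw/w1118 DR and Canton-S DR arrays are the highest, and the Canton-S control arrays and the dSir2 control arrays at day 10 are the lowest.

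The Canton-S and the dSir2 controls differed. At day 10, 1 member was higher and 6 lower in the Canton-S control than in the dSir2 control, against 3.86% and 4.96% of all genes, and at day 40 the counts were 0 and 7, against 5.11% and 6.65%. TpnC41C was lower by −0.81 at both ages, at 8.63, 8.34 and 8.49 in Canton-S against 9.43, 9.10 and 9.36 at day 10, and at 8.39, 8.14 and 7.96 against 9.03, 9.01 and 8.88 at day 40. Msp300 was the member that was higher in Canton-S at day 10, by 0.86 ± 0.09 (adjusted p = 0.00626). With all 14 groups in 1 fit, 0 members were called higher and 8 lower in Canton-S at day 10. In Msp300 the DN-Dmp53 control differed from the dSir2 control at day 10 by −1.45, which was not called. At day 40 Prm and Zasp52 were lower by −1.20 and −1.16, and Act88F by −1.65 ± 0.38 (adjusted p = 0.0455). The construct, the driver and the strain differ together in this comparison and cannot be told apart. The count at day 10 was 2 without replicate 3 of either control and 4 without replicate 2 of either, and at day 40 it was 4 without replicate 2 of the Canton-S control.

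Ageing parted the flight muscle genes. In the yw/w1118 background, Act88F rose between day 10 and day 40 while TpnC4 and fln fell, although the fall of fln on the dSir2 arrays was not called. In Canton-S, 0 of the 3 genes were called in the control or under DR. In the dSir2 control, Act88F went from 6.71, 6.31 and 6.67 to 9.46, 9.32 and 9.53, a rise of 2.87 ± 0.13 (adjusted p = 0.000427). In the DN-Dmp53 control it went from 6.92, 7.21 and 6.75 to 10.10, 10.55 and 10.14, a rise of 3.30 ± 0.19 (adjusted p = 0.0016), and with DN-Dmp53 from 6.76, 6.87 and 6.62 to 10.50, 10.30 and 10.42, a rise of 3.66 ± 0.09 (adjusted p = 0.00114). The rise was 1.86 ± 0.19 on the dSir2 arrays (adjusted p = 0.00692), which reached 9.15, 9.73 and 9.29, and 1.72 ± 0.22 in yw/w1118 DR (adjusted p = 0.0197), which started from the higher level at day 10. In Canton-S the rise of 1.54 ± 0.51 in the control was not called (adjusted p = 0.108), although the ages did not overlap, and under DR the difference was −0.22 ± 0.48 (adjusted p = 0.823).

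TpnC4 was lower at day 40 in all 7 conditions and called in 5. In the dSir2 control it went from 10.25, 9.88 and 10.14 to 8.66, 8.70 and 8.99 (−1.31 ± 0.14, adjusted p = 0.0026). The fall was −0.91 ± 0.11 in the DN-Dmp53 control, −1.80 ± 0.13 in yw/w1118 DR, −1.52 ± 0.16 on the dSir2 arrays and −1.55 ± 0.12 with DN-Dmp53, and in Canton-S the differences were −1.05 ± 0.31 in the control (adjusted p = 0.0801) and −0.55 ± 0.24 under DR (adjusted p = 0.199). For fln the call was made in 4 conditions, with −1.17 ± 0.09 in the dSir2 control (from 8.90, 8.73 and 8.88 to 7.59, 7.58 and 7.83), −0.86 ± 0.17 in the DN-Dmp53 control, −1.55 ± 0.13 in yw/w1118 DR and −1.44 ± 0.11 with DN-Dmp53. The differences of fln on the dSir2 arrays (−0.79), in the Canton-S control (−0.34) and in Canton-S DR (0.65 ± 0.29) were not called. Each of these 3 genes has a single probeset on the array among the members, and each was above the lowest value on all arrays.

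Over all members the age comparisons were mixed. In the dSir2 control 8 rose and 3 fell, against 14.9% and 17.1% of all genes, and in the DN-Dmp53 control 7 rose and 5 fell, against 11.4% and 10.4%. The Canton-S control had 5 up and 1 down, against 7.25% and 2.34%. Under DR, 1 rose and 4 fell in yw/w1118, against 3.98% and 4.29%, and 1 rose and 2 fell in Canton-S, against 5.94% and 3.54%. On the dSir2 arrays 3 rose and 3 fell, against 9.54% and 7.52%, and with DN-Dmp53 2 rose and 4 fell, against 7.55% and 3.46%. These shares are from 31 or 32 members tested and several lie near those of all genes. With single arrays left out the count in the Canton-S control was between 1 (without replicate 2 of day 10) and 6, in yw/w1118 DR between 2 (without replicate 2 of day 10) and 6, in Canton-S DR between 0 (without replicate 2 or 3 of day 10) and 5 (without replicate 1 of day 40), and on the dSir2 arrays between 3 (without replicate 1 of day 10) and 10 (without replicate 3 of day 10). Medians ran from −0.19 in Canton-S DR to 0.31 in the dSir2 control.

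Besides Act88F, Mlc2 was the member that most often rose with age. It was called in 5 conditions, by 1.40 ± 0.19 in the dSir2 control (from 9.60, 9.37 and 9.49 to 11.25, 10.79 and 10.62), 1.42 ± 0.07 in the DN-Dmp53 control, 1.26 ± 0.16 in the Canton-S control, 0.76 ± 0.15 on the dSir2 arrays and 1.18 ± 0.11 with DN-Dmp53. Under DR it differed by 0.55 ± 0.08 in yw/w1118 and −0.08 ± 0.16 in Canton-S. Prm and Zasp52 rose in both yw/w1118 controls, by 0.95 and 0.91 in the dSir2 control and by 0.60 and 0.67 in the DN-Dmp53 control, and tn rose in the 3 control groups and on the dSir2 arrays, by between 0.65 and 0.97. In the jump and leg list, TpnC41C fell in the DN-Dmp53 control (−0.78 ± 0.06), in yw/w1118 DR (−1.11 ± 0.09) and with DN-Dmp53 (−0.92 ± 0.15). In the body wall list, Act87E was called in 0 of the 7 conditions, with differences between −0.29 and 0.49. TpnC73F rose in the dSir2 control (1.38 ± 0.09), the Canton-S control (0.83 ± 0.10) and Canton-S DR (0.86 ± 0.14). In the ovary list of 19 genes, 6 fell and 4 rose with age in the dSir2 control, against 17.1% and 14.9% of all genes. In the DN-Dmp53 control 7 of them fell and 1 rose, against 10.4% and 11.4%. The part of these genes in the muscle values was not tested.

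**Figure D4:**
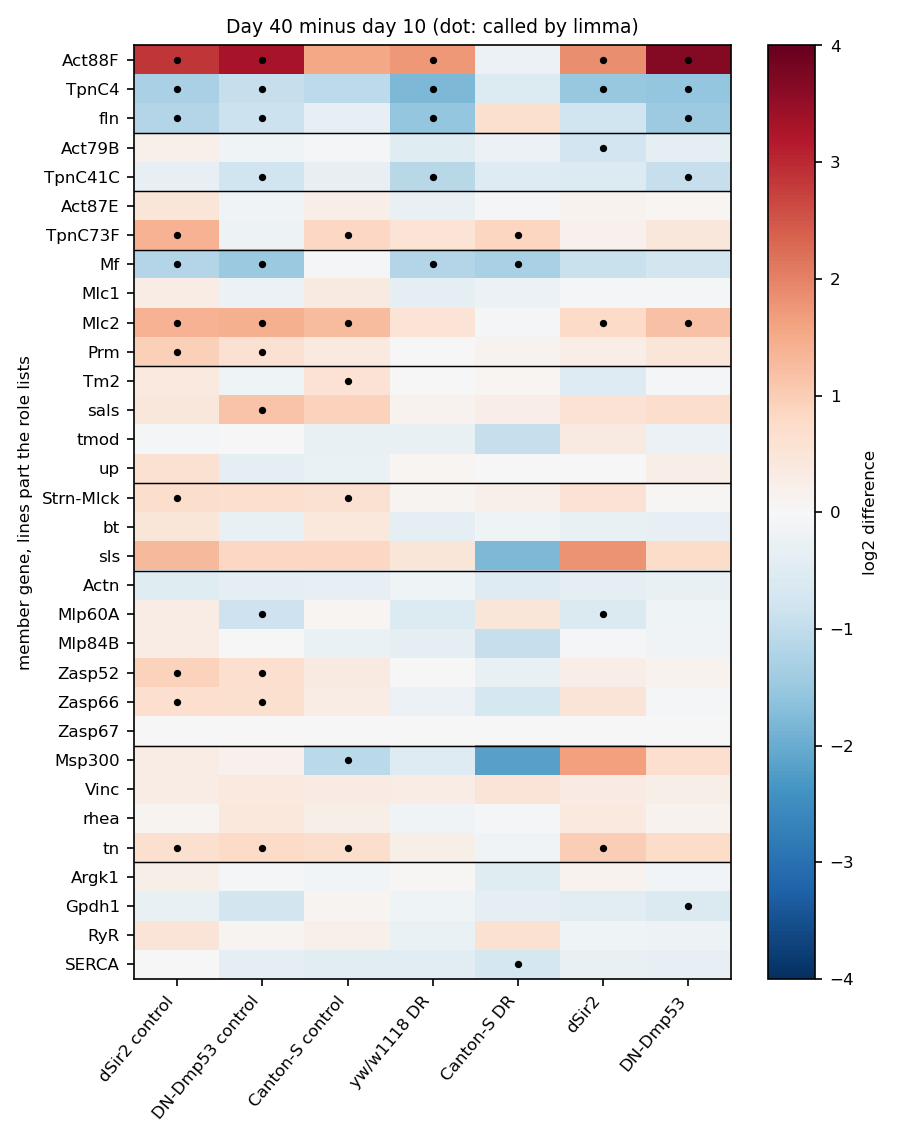
Log2 difference between day 40 and day 10 of 32 member genes (rows, parted by role) in 7 conditions (columns); a black dot marks a gene called by limma. Act88F is called in 5 columns and TpnC4 in 5, with opposite signs.

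For several genes the probesets disagreed with age. SERCA has 3 probesets, and the brightest, used above, was called in 1 condition (−0.71 in Canton-S DR). The second by mean level was lower at day 40 in all 7 conditions: in the dSir2 control it went from 11.37, 11.19 and 11.48 to 9.84, 9.70 and 9.65 (−1.62 ± 0.09, adjusted p = 0.000661), and in yw/w1118 DR from 12.46, 12.59 and 12.52 to 10.27, 10.34 and 10.33 (−2.21 ± 0.04, adjusted p = 0.00179). The other falls of this probeset were −2.36 in the DN-Dmp53 control and on the dSir2 arrays, −2.1 with DN-Dmp53, and −1.29 and −1.07 in the Canton-S control and DR. At day 10 it rose with DR as most members did, by 1.17 ± 0.09 in yw/w1118 and 1.25 ± 0.13 in Canton-S. The third SERCA probeset was called with age in 1 condition (−0.70 with DN-Dmp53).

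Strn-Mlck has 2 probesets above the lowest value, which went opposite ways. The brighter one rose with age in the dSir2 control (0.71) and the Canton-S control (0.62), whereas the second fell in 6 conditions, from 7.29, 7.09 and 7.54 to 4.49, 4.06 and 5.70 in the dSir2 control (−2.56 ± 0.47, adjusted p = 0.0121) and from 8.65, 8.46 and 8.03 to 5.29, 4.62 and 4.72 with DN-Dmp53 (−3.50 ± 0.26, adjusted p = 0.00609). On the dSir2 arrays at day 40 it read 7.07, 4.55 and 7.08, and the fall of −1.90 ± 0.79 was not called (adjusted p = 0.157). Both of these rose with DR at day 10 in both backgrounds. For Mf, the probeset used fell with age in 4 conditions, by between −1.17 and −1.50, and the other one was called in 0 of the 7, with differences between −0.38 and 0.25. Over all member probesets, the number called lower with age was 6 in the dSir2 control, 8 in the DN-Dmp53 control, 4 in the Canton-S control, 7 in yw/w1118 DR, 5 in Canton-S DR, 5 on the dSir2 arrays and 7 with DN-Dmp53, of 50 to 52 tested, against 16.5%, 10%, 2.85%, 4.44%, 4.55%, 7.06% and 3.46% of all probesets that name 1 gene. Which transcripts each probeset detects was not examined here.

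**Figure D5:**
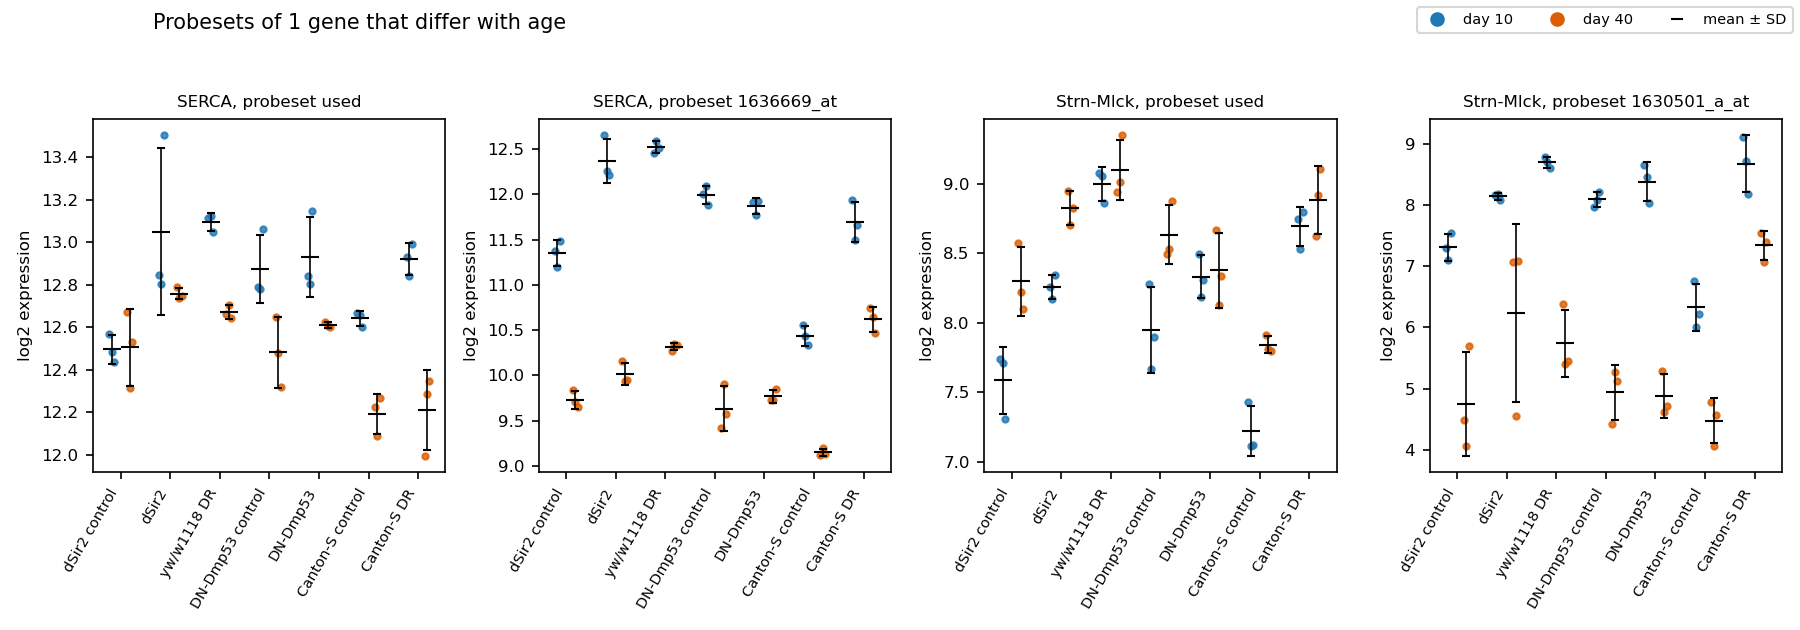
Log2 expression of 2 probesets each of SERCA and Strn-Mlck on each array (points), by condition and age (blue for day 10, orange for day 40), with mean ± SD of 3 arrays in black; the y axes differ. The second probeset of SERCA is lower at day 40 in all 7 conditions without overlap, and that of Strn-Mlck reads 4.06 to 5.70 in the dSir2 control at day 40 against 7.09 to 7.54 at day 10.

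The members also differed in how far replicate arrays agreed. The median SD among 3 arrays of a group was between 0.07 and 0.28 for the other 29 members above the lowest value, and 0.52 for Msp300 and 0.49 for sls. In several groups these genes were high or low on the same array: on the dSir2 arrays at day 10 Msp300 read 5.56, 5.94 and 8.63 and sls 6.06, 7.19 and 8.80, in the DN-Dmp53 control at day 10 they read 5.36, 5.54 and 7.31, and 6.84, 7.03 and 8.11. Standard errors of their differences reached 0.92 for Msp300 and 0.76 for sls. Another sls probeset rose with DR at day 40 in Canton-S by 0.94 ± 0.18 (adjusted p = 0.0184) where the brighter one differed by −0.67 ± 0.65.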

How the data were processed

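RNA of whole females was hybridised to 42 Affymetrix arrays, 3 in each of 14 groups, described by the study as independent biological replicates. The deposited values are log2 intensities that the authors processed with GCRMA, which corrects background by probe sequence and makes arrays alike by quantile normalization, so a shift shared by most genes would be removed and low signals pile up at 2.11. The number of arrays limits the precision. Control probesets (183) were left out; of 18769 others, 13647 named 1 gene, 402 several and 4720 none. Each gene took its single-gene probeset with the highest mean.

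Each comparison was fitted on its own 6 arrays with limma 3.58.1 (R 4.3.3), leaving out probesets whose mean was at or under the 25th percentile in both groups, with Benjamini-Hochberg adjustment over all probesets tested. Called means adjusted p under 0.05 and over 1.5-fold. Background percentages count genes, by the same probeset rule. Interactions were fitted on 12 arrays. The fit of a single comparison with its main settings was tested on simulated data, but the interaction fit and the alternative settings were not.

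Members, roles and the marker lists were chosen with earlier results of these data known. Any member could be named, and given by array were the flight and body wall genes and up to 3 others per role with the largest mean absolute DR change, 25 in all. Alternatives were other filters, all groups in 1 fit, a replicate block, array weights, centred arrays, any probeset, the methods' t-test, leaving out each array, and another control. The t-test called members at an unadjusted p under 0.01 and over 1.5-fold, as in the methods. Replicate numbers deviated together in both DN-Dmp53 comparisons (correlations 0.61, 0.42 and 0.76 at day 10, and 0.30, 0.28 and 0.20 at day 40) and between the 2 yw/w1118 controls at day 40 (0.51, 0.25 and 0.15). In each other comparison at least 1 pair had a correlation of 0.1 or less. Figures were drawn with matplotlib.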

Additional observations from a re-analysis of the deposited data

Results flagged for a closer look

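Differences of an effect between ages or backgrounds were taken up where the interaction itself passed the same limits (limma, log2 scale, effect at day 40 minus effect at day 10, or Canton-S minus yw/w1118). For DR in yw/w1118 and for dSir2, the interactions used the dSir2 controls and were not fitted with the DN-Dmp53 controls. Between ages, the DR difference in yw/w1118 was smaller at day 40 for Mlc2 (−0.85), TpnC41C (−0.78), Mlc1 (−0.68), Act88F (−1.15), Prm (−0.95), TpnC73F (−0.83), Zasp66 (−0.90), Act87E (−0.78), Mlp60A (−0.82) and Zasp52 (−0.89), with adjusted p between 0.00711 for Mlp60A and 0.0481 for Mlc2.

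In Canton-S it was smaller for Mlc2 (−1.34), Zasp66 (−0.98), Mf (−1.24), tn (−0.86) and Zasp52 (−0.64), with adjusted p between 0.0117 and 0.0396. The dSir2 difference was smaller at day 40 for Act79B (−0.96), Act88F (−1.01), TpnC73F (−1.20), Mlp60A (−0.88) and Zasp52 (−0.65), with adjusted p between 0.00548 and 0.0472. The DN-Dmp53 difference of Mlp60A was −0.37 at day 10 and 0.29 at day 40, an interaction of 0.66 that was not called with the replicate block (adjusted p = 0.0893).

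Between backgrounds at day 10, the DR difference of Msp300 was −1.28 in Canton-S relative to yw/w1118 and that of tn 0.75. Neither was called with all 14 groups in 1 fit. At day 40 it was larger in Canton-S for TpnC41C (0.92), Prm (0.91), TpnC73F (0.80), RyR (0.98), TpnC4 (1.28), Act87E (0.59), fln (1.26), Mlp60A (0.78) and Zasp52 (0.61), with adjusted p between 0.0285 and 0.0459. Most of these day 40 calls were lost with no filter or with the replicate block.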

How the results depend on the processing

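The main limit was 3 arrays a group. Of 882 values of called members with 1 array left out, 713 stayed called, 169 lost the call and 0 changed sign. Of 1068 under the other alternatives, 952 stayed called, 115 lost it and 1 changed sign, TpnC73F on the dSir2 arrays at day 10 (−0.035 with the DN-Dmp53 control as reference, chosen after seeing the data, with 0 members called in that comparison and 7 for DR in yw/w1118 at day 40). Counts below are of members called, and the share of all genes under each alternative was not counted. The cause of each change was not tested.

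Leaving out each array in turn gave 23 to 25 and 20 to 22 for DR at day 10 in yw/w1118 and Canton-S, 9 to 15 for dSir2 at day 10, 16 to 19 for DR in Canton-S at day 40, and 0 in the other intervention comparisons. For ageing it gave 9 to 10 in the dSir2 control, 8 to 12 in the DN-Dmp53 control, 1 to 6 in the Canton-S control (1 without replicate 2 of day 10), 2 to 6 in yw/w1118 DR, 0 to 5 in Canton-S DR, 3 to 10 on the dSir2 arrays and 4 to 9 with DN-Dmp53. Against the dSir2 control it gave 2 to 7 (day 10) and 4 to 8 (day 40) for the Canton-S control, and 2 to 6 and 0 for the DN-Dmp53 control.

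With the replicate number as a block, 8 were called for dSir2 at day 10. In ageing the block gave 7 in the DN-Dmp53 control, 3 in the Canton-S control, 0 in yw/w1118 DR, 0 in Canton-S DR and 2 on the dSir2 arrays. It gave 3 and 3 for the Canton-S against the dSir2 control at days 10 and 40 and 0 for the DN-Dmp53 against the dSir2 control at day 10. For the interactions it gave 6 (age and DR, yw/w1118), 3 (age and DR, Canton-S), 1 (background, day 10) and 2 (background, day 40). In the 3 comparisons whose numbers paired the arrays 0 members were called with or without the block, and in the interaction of age and DN-Dmp53 the block ended the call of Mlp60A and added TpnC4 (−0.64).

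The 50th percentile filter gave 3 for DR in yw/w1118 at day 40, 7 for ageing in Canton-S DR, 11 for the Canton-S and 1 for the DN-Dmp53 against the dSir2 control at day 40. No filter gave 3 and 1 for ageing in the Canton-S control and DR, and in the interactions 3 (age and DR, Canton-S), 3 (age and dSir2), 0 (age and DN-Dmp53), and 1 and 2 (background, days 10 and 40). All groups in 1 fit gave 1 for DN-Dmp53 at day 10, 17 for DR in yw/w1118 at day 40, 9 and 10 for ageing in Canton-S DR and dSir2, 2 for the DN-Dmp53 against the dSir2 control at day 40, and 8 and 0 in the interactions of age and DR in Canton-S and of background and DR at day 10.

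Array weights gave 1 for DN-Dmp53 at day 10, 19 for DR in yw/w1118 at day 40, 8, 7 and 13 for ageing in yw/w1118 DR, Canton-S DR and dSir2, 3 and 11 for the Canton-S against the dSir2 control at days 10 and 40, and 7 for the DN-Dmp53 against the dSir2 control at day 10. Any probeset gave 9 and 5 for ageing in yw/w1118 and Canton-S DR, and 11 and 7 for the Canton-S and DN-Dmp53 against the dSir2 control at day 10. The methods' t-test, called at an unadjusted p under 0.01, gave 10 for DR in yw/w1118 at day 40 and 2 for the DN-Dmp53 against the dSir2 control at day 40.

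Centring the arrays moved differences by up to 0.12 (DR in Canton-S at day 10). It gave 5 for DR in yw/w1118 at day 40, 5 for ageing in Canton-S DR (1 higher and 4 lower), 8 for the interaction of age and dSir2 and 2, both negative, for that of age and DN-Dmp53. For ageing it changed the split to 3 higher and 4 lower in yw/w1118 DR and to 4 and 2 on the dSir2 arrays.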
